A study of Homo sapiens with 9 samples.

Results

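MYC and 34 genes of nucleolar ribosome assembly were followed across 9 RNA libraries of SW1353, a chondrosarcoma line of human origin that serves as a model of chondrocytes. The genes were chosen by name, with earlier results of these data known. They were MYC, 3 RNA polymerase I subunits, 6 proteins of the small nucleolar ribonucleoproteins (snoRNPs), 3 nucleolar scaffold proteins, 9 small subunit assembly factors and 13 large subunit assembly factors. Each of the 35 symbols was found in 1 of the 19389 rows of the deposited expression table.

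The untreated group, the IL-1β group and the PBSL + IL-1β group each held 3 libraries. IL-1β, an inflammatory cytokine, was given at 20 ng/mL for 20 h. PBSL comes from beetle larvae (Protaetia brevitarsis seulensis), and the last group was pretreated with it for 2 h and then given IL-1β as above. PBSL was not given without IL-1β, so a PBSL effect was seen only on top of IL-1β, and the labels list several PBSL concentrations without saying which was sequenced. The labels do not say that the libraries of a group came from separate cultures, so each p-value measures the spread between these libraries, which may be technical.

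MYC is a transcription factor that pairs with MAX and binds the E-box, the palindrome CACGTG. Genes for making ribosomes are among its best known targets. In the nucleolus, RNA polymerase I transcribes the ribosomal RNA precursor, box C/D snoRNPs methylate it, box H/ACA snoRNPs convert chosen uridines to pseudouridine, and ordered sets of assembly factors fold, cut and export the small and large subunits.

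The E-box letters, which MYC binds with MAX, were looked for in RefSeq promoter windows on GRCh38.p14. A window ran from 250 bases before to 50 bases after each annotated start. A window was found for 28 of the 35 genes, and not for MYC, NOP58, NOLC1, RRP12, BOP1, RRP1B and RRS1. CACGTG, which reads the same on both strands, was present for 11 of the 28 genes (39.3%). The share was 12.7% among the 9485 other tested genes with a window and 8.77% among all 27305 genes with one. Among other genes of the pathway it was 43.6% of 39 small subunit factors, 29.4% of 34 large subunit factors and 42.9% of 7 RNA polymerase III subunits. It was 9.09% of 11 RNA polymerase I genes, 11.1% of 9 snoRNP genes and 8.33% of 12 RNA exosome genes. Of 13 other MYC targets, 69.2% held it. Shown first are the windows of the 6 E-box genes that were called higher with PBSL + IL-1β than with IL-1β, and then the earliest and the latest site, in UTP20 and NOP2. Capitals mark CACGTG.
MRTO4 (chr1:19251807-19251836, plus strand): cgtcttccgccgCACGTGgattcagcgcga
FBL (chr19:39846356-39846385, minus strand): tgcgctcttttcCACGTGcgaaagccccgg
WDR43 (chr2:28894658-28894687, plus strand): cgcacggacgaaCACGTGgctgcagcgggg
PES1 (chr22:30591880-30591909, minus strand): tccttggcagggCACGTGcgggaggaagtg
NOP14 (chr4:2963374-2963403, minus strand): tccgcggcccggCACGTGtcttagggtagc
BYSL (chr6:41921515-41921544, plus strand): ttcttcagtcccCACGTGcgatccttcccg
UTP20 (chr12:101280083-101280112, plus strand): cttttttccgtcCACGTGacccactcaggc
NOP2 (chr12:6568242-6568268, minus strand): aggtccggattgCACGTGgagggccgc

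The first base of each of the 11 sites lay between -10 and 35 relative to the start. A site between 50 bases before and the end of the window was held by 39.3% of the genes with a window and by 5.27% of the other tested genes. Among the other small and large subunit factors with a window, 35.9% and 20.6% held such a site. The other 3 E-box genes were RRP9, GNL3 and GAR1. A match describes these letters in this window and says nothing of binding.

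The deposited values were normalized for gene length and depth, so levels can be compared between genes. They summed to between 523758 and 553196 per library, and the number of reads behind a value is unknown. Of the 19389 rows, 11924 reached 1 in 3 or more libraries and entered the test, the 35 genes among them. Of 8 cartilage markers, 3 passed this filter: SOX9, ACAN and HAPLN1. In each group 6 of the 8 had a mean under 1, though not the same 6 throughout. COL2A1 and the other collagen markers were among the 6 in each group, and SOX9 in none. ACAN was at most 0.554 in untreated cells and at least 1.21 in the other libraries. HAPLN1 was at least 1.70 in untreated cells and at most 0.668 in the other libraries. The summed value of 5 epithelial markers ran from 2.00 to 13.953 in the untreated group, with the high value in untreated 1, and from 0.759 to 1.384 in the other groups. Summed endothelial markers reached at most 1.328. The sum of 6 macrophage and leukocyte markers was 71.5 to 78.8 in untreated cells, 98.4 to 101 with IL-1β and 83.4 to 89.4 with PBSL + IL-1β. It was made up almost wholly of CD68, a lysosomal protein, which rose with IL-1β by 0.41 and with PBSL fell by 0.22 on the log2 scale (limma, adjusted p = 8.35e-05 and 0.0139). CSF1R, a macrophage receptor, was at 2.70, 3.06 and 2.69 in untreated cells and at 3.72, 3.80 and 3.81 with IL-1β. With PBSL + IL-1β it was at 3.41, 3.61 and 3.26. PTPRC, CD14, ITGAM and AIF1 did not exceed 0.53 in any library.

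Averaged over the 9 libraries, the levels of the genes ran from 692 for NPM1, the histone and ribosome chaperone nucleophosmin, to 3.83 for WDR12, a partner of PES1 and BOP1 in large subunit assembly. NCL, or nucleolin, an RNA-binding protein of the nucleolus, was next to NPM1 at 185. FBL, fibrillarin, which carries the methyltransferase activity of box C/D snoRNPs, stood at 92.5. MYC, at 26.4, was the 12th highest of the 35.

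MYC RNA was not called changed in any of the 3 comparisons. Its value was 26.6, 26.6 and 25.8 in the untreated libraries, 27.5, 25.0 and 29.2 with IL-1β, and 26.5, 26.5 and 23.3 with PBSL + IL-1β. The groups overlapped in each comparison, and the library with the lowest value was PBSL + IL-1β 3. From untreated to IL-1β the log2 fold change was 0.04, with a 95% interval from -0.11 to 0.19 (limma, adjusted p = 0.663). From IL-1β to PBSL + IL-1β it was -0.09, with an interval from -0.24 to 0.06 (limma, adjusted p = 0.347). A change in MYC of the size seen below for MRTO4 thus lay outside that interval. From untreated to PBSL + IL-1β it was -0.05, with an interval from -0.20 to 0.10 (limma, adjusted p = 0.590).

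**Figure D1:**
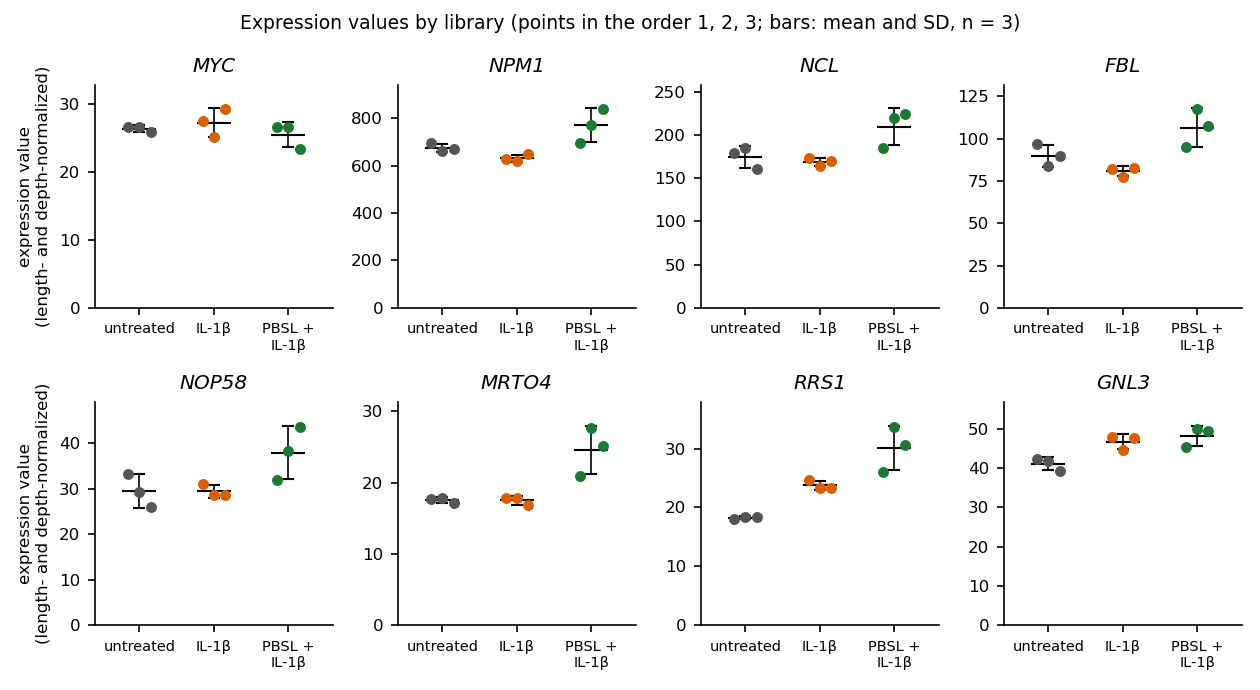
Expression value of 8 of the genes in each library, by group, on linear axes that start at 0; points are libraries 1, 2 and 3 from left to right, and the bars give the mean and SD of 3 libraries. MYC overlaps between the groups, RRS1 and GNL3 are already higher with IL-1β than in untreated cells, and NPM1, NCL, FBL, NOP58 and MRTO4 are higher with PBSL + IL-1β than with IL-1β.

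IL-1β alone changed few of these genes. Against untreated cells, 4 of the 35 were called higher and 1 lower, where 16.2% of all tested genes were called higher and 16% lower (32.1% in either direction). The median log2 fold change of the 35 was -0.00350, and -0.00491 over all tested genes. The values of the groups did not overlap for 7 genes above and 5 below, beside 25.7% and 27.1% of all tested genes. These shares lie near or under the background.

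The 4 genes called higher with IL-1β were listed as large subunit assembly factors, and so was RRP1B, which was called lower. RRS1, which helps load the smallest RNA of the large subunit, was at 17.998, 18.4 and 18.4 in untreated cells and at 24.7, 23.3 and 23.3 with IL-1β. Every IL-1β library was above every untreated one, and RRS1 rose by a log2 fold change of 0.36 ± 0.08 (SE; limma, adjusted p = 0.00368). NOP2, a methyltransferase of the large subunit RNA, had values of 13.8, 13.3 and 12.8 in untreated cells and of 16.4, 15.01 and 15.7 with IL-1β. Its groups did not overlap either, and it rose by 0.22 ± 0.06 (SE; limma, adjusted p = 0.00966). PPAN, a partner of large subunit precursors, was at 14.9, 14.7 and 15.1 and then at 17.6, 18.5 and 16.9. The change in PPAN was 0.23 ± 0.07 (SE; limma, adjusted p = 0.0255). GNL3, the nucleolar GTPase nucleostemin, went from 42.4, 41.9 and 39.2 to 48.0, 44.6 and 47.7, again with no overlap, a change of 0.18 ± 0.06 (SE; limma, adjusted p = 0.0316).

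RRP1B was the gene called lower with IL-1β. This nucleolar protein, a paralog of RRP1, had values of 11.3, 11.4 and 10.1 in untreated cells and of 9.07, 9.09 and 9.46 with IL-1β. The groups did not overlap, and RRP1B fell by 0.22 on the log2 scale (limma, adjusted p = 0.0268). The call was lost in 5 of the 9 fits without a library, those without untreated 1, untreated 2 or any 1 of the IL-1β libraries (adjusted p up to 0.0964). RRP1 itself was not called, with means of 7.36 ± 0.05 and 7.38 ± 0.42 (SD, n = 3). The count of 5 calls fell to 3, 2 and 3 without untreated 1, 2 and 3, and to 1, 3 and 3 without IL-1β 1, 2 and 3. Over all tested genes the count of 3831 fell to 3052, 3422 and 3146, and to 3001, 2990 and 2935, in the same fits. It rose to 9 with array weights. PPAN kept its call in 4 and GNL3 in 5 of the 9 fits without a library (adjusted p up to 0.104 and 0.121). RRS1 kept its call in each of 17 alternatives and NOP2 in 16, all but the one without IL-1β 1 (adjusted p = 0.0548 there, from 0.00311 to 0.0548 over the 17).

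With PBSL before IL-1β, many of the genes stood higher than with IL-1β alone. Of the 35 genes, 21 were called higher and 0 lower, against 11.5% higher and 11% lower over all tested genes (22.5% in either direction). Counted without MYC, 34 of 34 genes had a positive log2 fold change. At an unadjusted p under 0.05 in limma, 26 of the 35 were higher and 0 lower. Of all 11924 tested genes, 4360 had such a p in either direction. The median was 0.22 on the log2 scale over the 35 genes and 0.01 over all tested genes. For 25 genes each PBSL + IL-1β library was above each IL-1β library, and for 0 genes below, beside 21.7% and 20.1% of all tested genes. The increases of the 21 were moderate, from 12.1% to 40.4% of the IL-1β mean.

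The count of 21 moved with the libraries kept. Leaving out IL-1β 1, 2 or 3 gave 7, 3 or 6, leaving out PBSL + IL-1β 2 or 3 gave 3 or 9, and leaving out PBSL + IL-1β 1 gave 24, while 6.02%, 5.45%, 5.72%, 5.98%, 7.87% and 16.9% of all tested genes were then called higher. The direction did not rest on 1 library, since at least 32 of the 34 genes other than MYC were positive in each of 17 alternatives (32 of the 32 tested with the filter at 5), with medians from 0.19 to 0.27. MRTO4, FBL and NPM1 kept their call in each alternative.

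**Figure D2:**
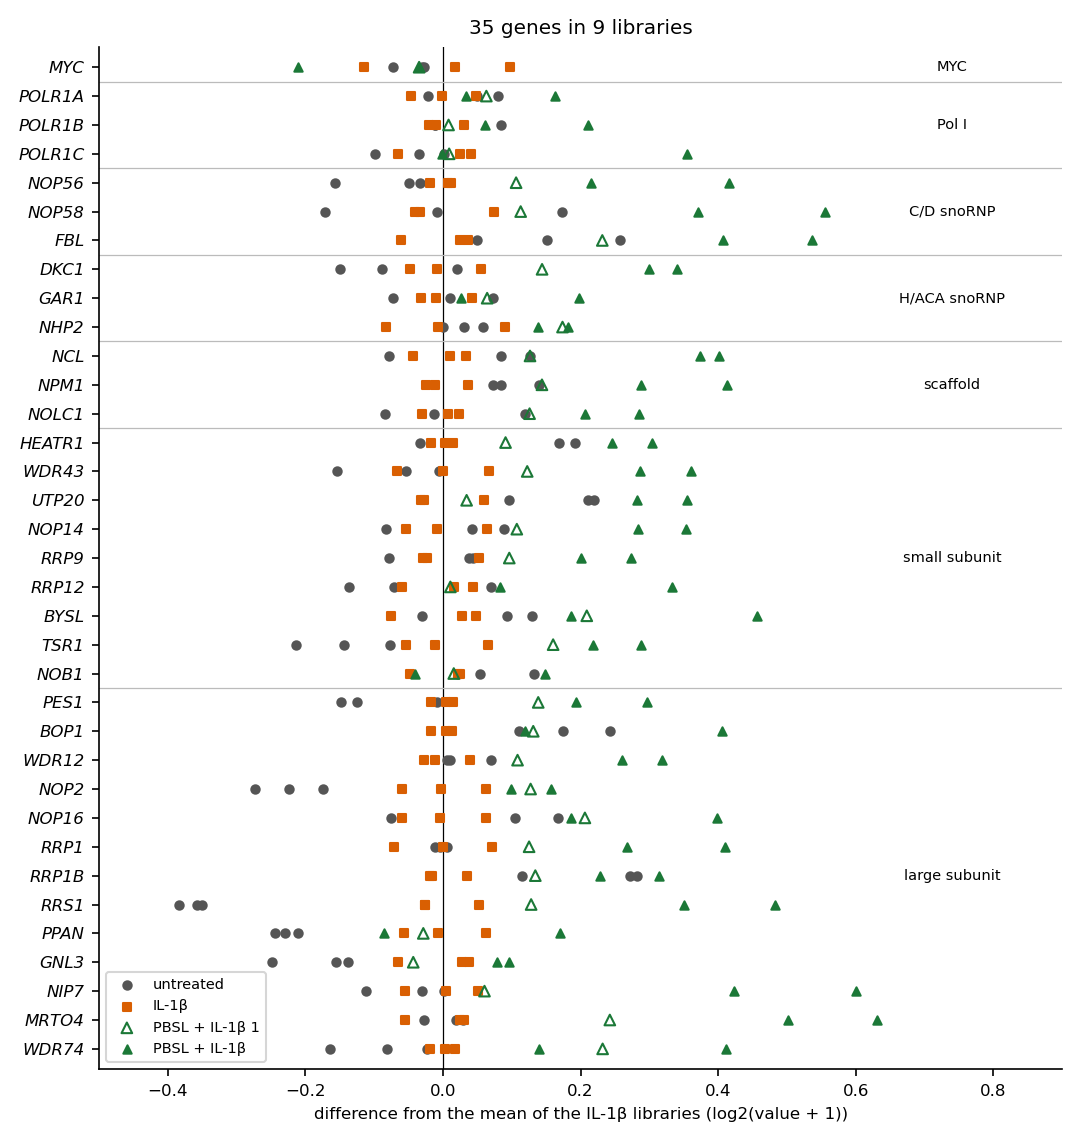
Difference of each library from the mean of the IL-1β libraries, in log2(value + 1), for the 35 genes in rows grouped by role; circles are untreated, squares IL-1β and triangles PBSL + IL-1β, with library 1 of that group open. Most triangles lie to the right of 0, and the open one is the leftmost of its group in 23 of the 34 rows other than MYC, while the MYC row does not show this.

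Among the RNA polymerase I subunits, 0 of 3 were called by limma, and 0 had an unadjusted p under 0.05. POLR1A, the largest subunit, was at 7.04, 6.80 and 7.32 with IL-1β and at 7.41, 7.24 and 8.01 with PBSL + IL-1β. POLR1B, the second largest, was at 6.67, 6.62 and 6.89 and then at 6.77, 7.06 and 7.94. POLR1C, shared with RNA polymerase III, was at 15.4, 15.6 and 14.4 and then at 15.2, 19.6 and 15.1. The groups overlapped for each of these subunits, and POLR1C was high in PBSL + IL-1β 2 alone. Their log2 fold changes were 0.09, 0.09 and 0.12, with upper 95% limits of 0.23, 0.24 and 0.31 (limma, adjusted p = 0.355, 0.352 and 0.348).

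The box C/D snoRNP proteins were called higher in 3 of 3 cases. FBL was at 82.2, 77.3 and 82.8 with IL-1β and at 94.96, 118 and 107 with PBSL + IL-1β. Its groups did not overlap, and FBL rose by a log2 fold change of 0.39 ± 0.08 (SE; limma, adjusted p = 0.00614). NOP58, a core protein that bridges the guide RNA and FBL, was at 31.0, 28.7 and 28.6 and then at 31.9, 38.3 and 43.7. NOP58 spread widely among the PBSL + IL-1β libraries, and PBSL + IL-1β 1 lay just above IL-1β 1. It rose by 0.35 ± 0.11 (SE; limma, adjusted p = 0.0392), and the call was lost without any 1 of untreated 2, the IL-1β libraries, PBSL + IL-1β 2 and PBSL + IL-1β 3 (adjusted p up to 0.128). NOP56, its paralog in the same particle, was at 42.8, 42.0 and 43.0 and then at 45.9, 57.2 and 49.6. NOP56 rose by 0.25 ± 0.07 (SE; limma, adjusted p = 0.0318), with no overlap.

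Of the box H/ACA proteins, 2 of 3 were called higher. DKC1, dyskerin, the pseudouridine synthase, was at 29.7, 28.9 and 31.1 with IL-1β and at 33.1, 37.0 and 38.1 with PBSL + IL-1β. It rose by 0.26 ± 0.07 (SE; limma, adjusted p = 0.0177). NHP2, a small core protein, was at 80.3, 84.7 and 90.7 and then at 96.2, 93.8 and 96.7, a rise of 0.16 ± 0.05 (SE; limma, adjusted p = 0.0429). NHP2 was called in 1 of 9 fits without a library. GAR1, another core protein, was at 30.9, 29.7 and 29.3 and then at 31.4, 34.5 and 30.5. GAR1 overlapped between the groups and was not called, with a log2 fold change of 0.10 and an interval from -0.04 to 0.23.

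The scaffold and chaperone proteins were called higher in 3 of 3 cases. NPM1 was at 626, 620 and 647 with IL-1β and at 697, 770 and 841 with PBSL + IL-1β, with no overlap. NPM1 rose by 0.28 ± 0.06 (SE; limma, adjusted p = 0.0109). The gene has 45 named pseudogenes in GENCODE 29, and how the authors treated reads that fit several places is not given in the sources used here. NCL was at 173, 164 and 171 and then at 185, 220 and 224, a rise of 0.30 ± 0.08 (SE; limma, adjusted p = 0.0175). NOLC1, a phosphoprotein that shuttles between nucleolus and Cajal bodies, was at 30.1, 29.7 and 28.9 and then at 32.4, 36.2 and 34.3. NOLC1 rose by 0.21 ± 0.06 (SE; limma, adjusted p = 0.0386). The 9 fits without a library gave adjusted p-values of up to 0.0693 for NCL and 0.123 for NOLC1.

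Of the 9 small subunit assembly factors, 4 were called higher: BYSL, WDR43, NOP14 and TSR1. BYSL, or bystin, a late factor, was at 11.7, 12.6 and 12.8 with IL-1β and at 14.4, 17.3 and 14.2 with PBSL + IL-1β. It rose by 0.28 ± 0.08 (SE; limma, adjusted p = 0.0262), with no overlap. WDR43, an early factor that binds the nascent precursor, was at 17.0, 17.9 and 18.8 and then at 19.6, 22.0 and 23.3, a rise of 0.26 ± 0.07 (SE; limma, adjusted p = 0.0257). NOP14, a scaffold of the small subunit precursor, was at 12.1, 12.5 and 13.2 and then at 13.7, 16.4 and 15.6, a rise of 0.25 ± 0.08 (SE; limma, adjusted p = 0.0354). TSR1, a late factor resembling a GTPase, was at 16.9, 15.5 and 15.96 and then at 18.1, 18.9 and 19.9, a rise of 0.22 ± 0.06 (SE; limma, adjusted p = 0.0246). For each of these 4 genes the groups did not overlap, and 4 or 5 of the 9 fits without a library kept the call.

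The other 5 small subunit factors had positive log2 fold changes without a call. RRP9, a protein of the U3 snoRNP, lay just outside the threshold, at 17.5, 16.5 and 16.6 and then at 18.1, 20.6 and 19.5, with 0.19 ± 0.06 (SE; limma, adjusted p = 0.0502). HEATR1, an early factor, did not overlap either, at 8.53, 8.39 and 8.61 and then at 9.13, 10.3 and 10.7, with 0.21 ± 0.08 (SE; limma, adjusted p = 0.0663). UTP20, a large scaffold protein, was at 3.94, 3.92 and 4.25 and then at 4.16, 5.12 and 5.44, an overlap made by PBSL + IL-1β 1. RRP12, an export factor, had means of 8.72 ± 0.36 and 9.77 ± 1.29 (SD, n = 3). NOB1, the endonuclease that makes the last cut of the small subunit RNA, had the smallest difference of the 9, with means of 21.1 ± 0.6 and 21.8 ± 1.5 (SD, n = 3) and an interval from -0.09 to 0.18.

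Of the 13 large subunit assembly factors, 9 were called higher. MRTO4, a relative of the ribosomal stalk protein that holds its place on the precursor, showed the largest fold change of the 35 genes. It was at 17.9, 17.8 and 16.8 with IL-1β and at 20.9, 27.6 and 25.2 with PBSL + IL-1β. Its groups were well apart, and MRTO4 rose by 0.46 ± 0.08 (SE; limma, adjusted p = 0.00488), or 40.4% of the mean. The gene lies at chr1:19251539-19260128 on hg38 in GENCODE 29, plus strand, and an exon of EMC1 overlaps it on the other strand. NIP7, which acts in precursor processing, was at 19.3, 17.9 and 18.7 and then at 19.5, 25.3 and 28.7. NIP7 in PBSL + IL-1β 1 was close to the IL-1β libraries, and the fitted rise of 0.36 ± 0.11 (SE; limma, adjusted p = 0.0332) was called in 3 of 9 fits without a library.

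RRS1, already higher with IL-1β, was higher again with PBSL, at 26.1, 33.6 and 30.6 beside 24.7, 23.3 and 23.3. The rise was 0.32 ± 0.08 (SE; limma, adjusted p = 0.0148), and RRS1 lost this call without IL-1β 2, IL-1β 3 or PBSL + IL-1β 2 (adjusted p from 0.05002 to 0.0573). RRP1B, lower with IL-1β, was at 9.07, 9.09 and 9.46 and then at 10.2, 11.7 and 11.0, a rise of 0.23 ± 0.07 (SE; limma, adjusted p = 0.0365). Both comparisons use the same IL-1β libraries. RRP1 rose by 0.27 ± 0.08 (SE; limma, adjusted p = 0.0281), from 7.38 ± 0.42 to 9.11 ± 1.00 (SD, n = 3). NOP16, a nucleolar protein of the same pathway, went from 18.4 ± 0.8 to 22.4 ± 1.9 and WDR74 from 15.3 ± 0.2 to 18.6 ± 1.9 (SD, n = 3). Both were called higher (limma, adjusted p = 0.0317 and 0.0242).

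PES1, BOP1 and WDR12 form the PeBoW complex, which is needed to mature the large subunit RNA. PES1 was at 43.7, 44.4 and 44.7 and then at 48.9, 54.6 and 50.8, a rise of 0.21 ± 0.06 (SE; limma, adjusted p = 0.0237). WDR12 was at 3.45, 3.50 and 3.66 and then at 3.89, 4.43 and 4.66, a rise of 0.23 ± 0.07 (SE; limma, adjusted p = 0.0434), called in 1 of 9 fits without a library. BOP1 was at 23.4, 23.6 and 23.1 and then at 25.7, 31.3 and 25.4, a difference of similar size, 0.22 ± 0.08 (SE; limma, adjusted p = 0.0557), that was not called although the groups did not overlap.

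The other large subunit factors not called here, NOP2, PPAN and GNL3, were 3 of the 4 that had risen with IL-1β. The IL-1β libraries enter both comparisons, so these results are not independent. NOP2 had values of 16.4, 15.01 and 15.7 and then of 17.2, 17.6 and 16.9, a difference of 0.13 ± 0.06 (SE; limma, adjusted p = 0.126). PPAN was at 17.6, 18.5 and 16.9 and then at 17.3, 20.0 and 16.6, and GNL3 at 48.0, 44.6 and 47.7 and then at 45.3, 50.0 and 49.4. The intervals of the log2 fold change were from -0.13 to 0.17 for PPAN and from -0.08 to 0.17 for GNL3. PPAN shares 1447 exonic bases with the read-through gene PPAN-P2RY11 on the same strand, and NOP2 shares 2550 with AC006064.6, so reads could be split between them.

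**Figure D3:**
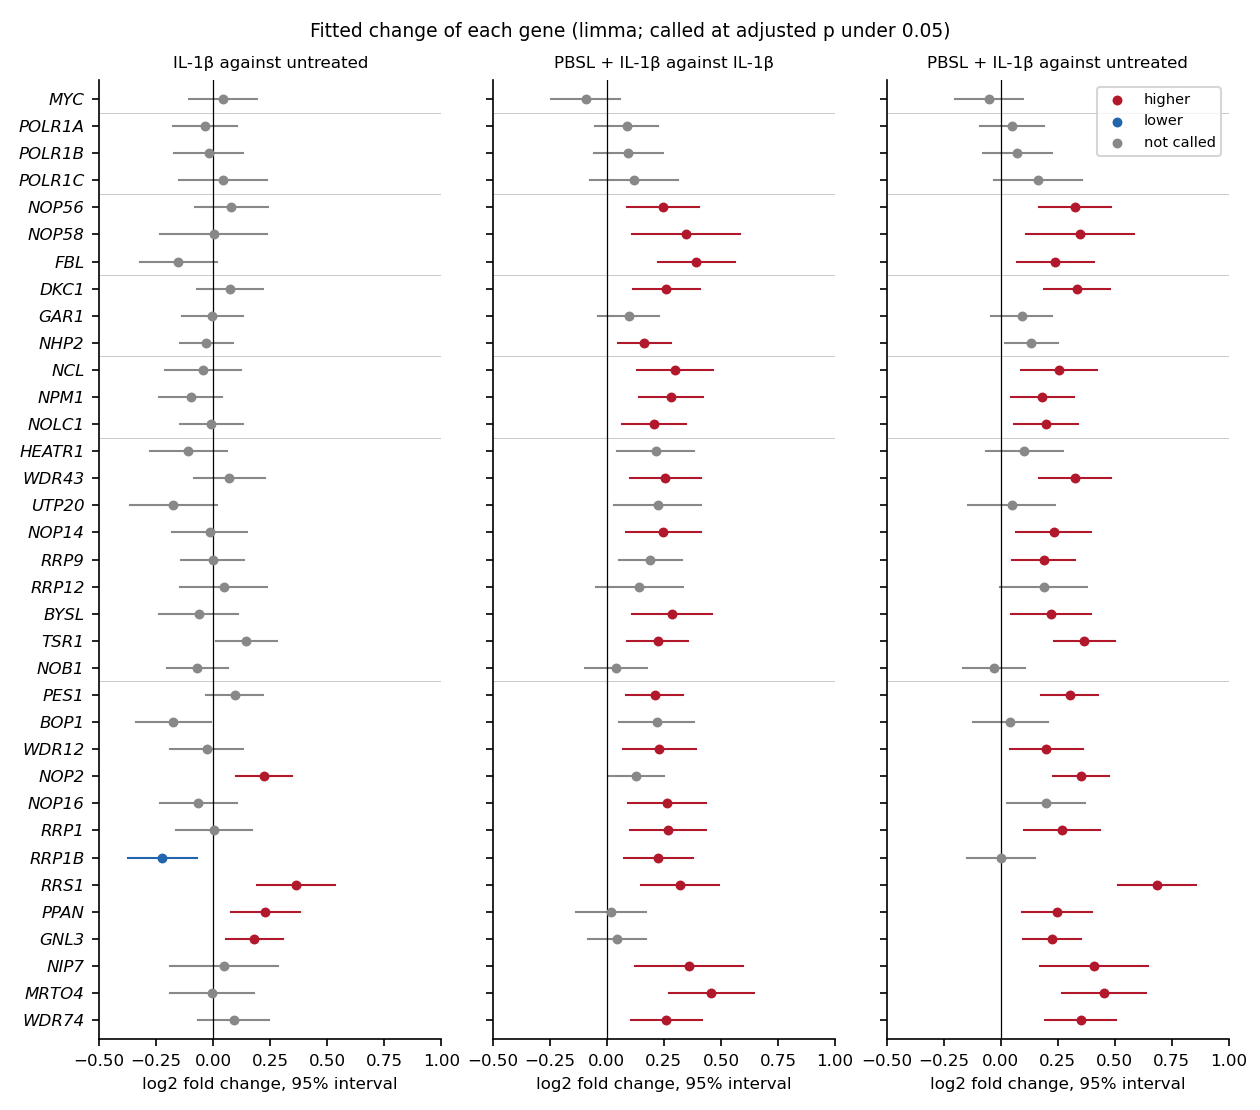
Log2 fold change of each gene with its 95% interval in the 3 comparisons, grouped by role; red points were called higher, blue lower and grey not called at an adjusted p under 0.05. In the first panel 5 genes are coloured, in the middle 21 and on the right 22, and MYC and the RNA polymerase I subunits are grey in each.

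Set against untreated cells, the PBSL + IL-1β group had 22 genes called higher and 0 lower (limma), where 22.3% of all tested genes were called higher and 19.3% lower (41.6% in either direction). At an unadjusted p under 0.05 (limma), 24 were higher and 0 lower, beside 5965 of all 11924 tested genes in either direction. The groups did not overlap for 22 genes above and 0 below, beside 26% and 22.1% of all tested genes. The median was 0.22, and 0.03 over all tested genes. Of the 22 genes, 18 were also among the 21 called against IL-1β, and the PBSL + IL-1β libraries are shared by both comparisons. NHP2, NOP16 and RRP1B were called only against IL-1β, and NOP2, PPAN, GNL3 and RRP9 only against untreated cells. The count of 22 was 14 without untreated 3 and 12 without PBSL + IL-1β 2, and 19 without untreated 1, the library with the epithelial marker values. In these fits 17.2%, 19.5% and 19.7% of all tested genes were called higher.

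RRS1 had the largest of these changes, from a mean of 18.3 ± 0.2 to 30.1 ± 3.8 (SD, n = 3), a log2 fold change of 0.68 ± 0.08 (SE; limma, adjusted p = 3.37e-05). MRTO4 rose by 0.45 (limma, adjusted p = 0.00123), NIP7 by 0.41 (0.0101), TSR1 by 0.37 (0.000598) and NOP2 by 0.35 (0.000448). RRP1B was not called, with means of 10.9 ± 0.8 and 10.9 ± 0.7 (SD, n = 3) and an interval from -0.15 to 0.15. FBL was at 96.7, 83.6 and 89.8 in untreated cells against 94.96, 118 and 107. The groups overlapped, FBL was called higher by 0.24 (limma, adjusted p = 0.0273), and it kept the call in 10 of 17 alternatives (adjusted p up to 0.108). NPM1 had the smallest called change, 0.18, with a call in 5 of 17 alternatives (adjusted p up to 0.445 with the length and GC trend removed).

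The spread among the PBSL + IL-1β libraries was wider than in the other groups. The median coefficient of variation of the 35 genes was 5.00% in untreated cells, 3.70% with IL-1β and 9.11% with PBSL + IL-1β. The PBSL + IL-1β libraries also spread more widely over all tested genes, where another measure was used, so the sizes are not compared. Over all tested genes, the SD of the log2 deviations from the group mean was 0.131, 0.117 and 0.119 in PBSL + IL-1β 1, 2 and 3. It was 0.106, 0.0944 and 0.101 in the untreated libraries and 0.0759, 0.0808 and 0.0764 in the IL-1β libraries. PBSL + IL-1β 1 was the lowest of its group for 23 of the 34 genes other than MYC (67.6%) and the highest for 0, while over all tested genes it was the lowest for 35.6%. It was nevertheless above every IL-1β library for 27 of the 34 genes, against 33 for PBSL + IL-1β 2 and 30 for PBSL + IL-1β 3. Over all tested genes, the matching shares were 35.02%, 41.4% and 42.4%.

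**Figure D4:**
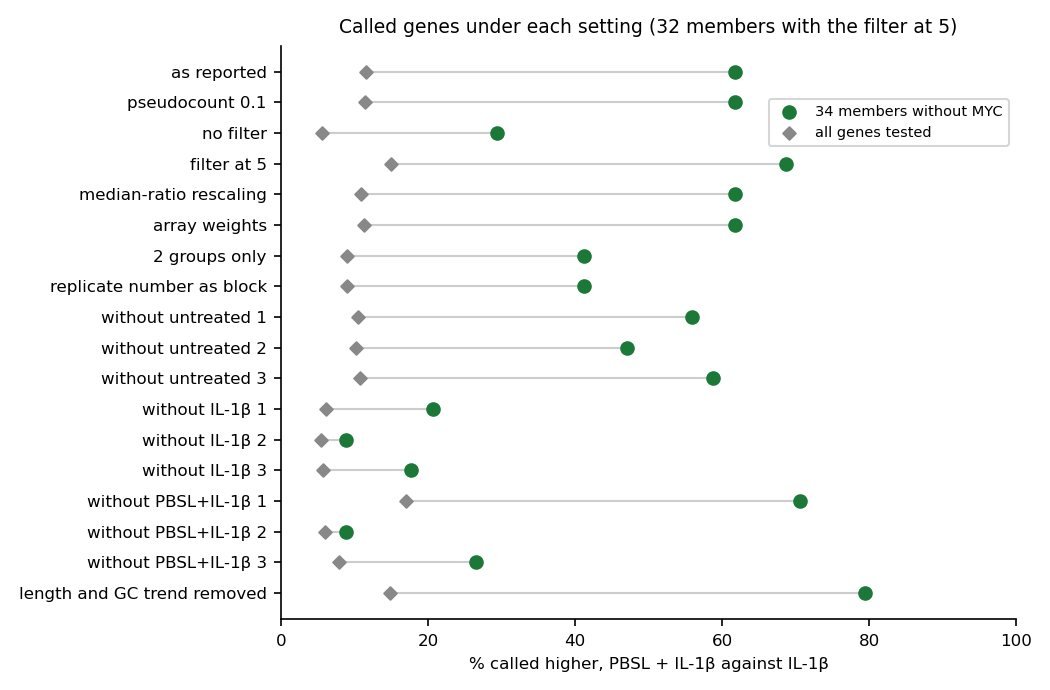
Percentage of genes called higher with PBSL + IL-1β than with IL-1β under the reported fit and 17 alternatives; green points are the 34 genes without MYC (32 with the filter at 5) and grey diamonds all tested genes. The green point lies to the right of the diamond in each row, from 8.82% without IL-1β 2 or PBSL + IL-1β 2 to 79.4% with the length and GC trend removed.

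Other genes of the pathway, listed by role, were compared in the same way. For PBSL + IL-1β against IL-1β, their counts stand beside 11.5% higher and 11% lower over all tested genes. Of 43 other small subunit factors tested, 13 were called higher and 0 lower with PBSL + IL-1β against IL-1β, and of 40 other large subunit factors 16 higher and 0 lower, with medians of 0.19 and 0.18. At an unadjusted p under 0.05 (limma), 27 and 24 were higher and 0 and 1 lower, beside 4360 of all 11924 tested genes in either direction. KRR1, a small subunit factor, had means of 18.6 ± 0.8 and 27.9 ± 5.6 (SD, n = 3), a rise of 0.54 (limma, adjusted p = 0.00923). TEX10, of the complex that frees the large subunit from its precursor, rose by 0.34, from 13.9 ± 0.4 to 17.9 ± 1.3 (SD, n = 3; limma, adjusted p = 0.00843). Of 14 exosome genes, which trim the RNA precursor, 6 were higher and 0 lower, MPHOSPH6 with 0.49 (limma, adjusted p = 0.00449) among them. Of 13 other snoRNP genes, 2 were higher, NOP10 and RUVBL1, and 0 lower, and the share called higher lies near that of all tested genes. The exosome and snoRNP lists also had 0 genes lower at an unadjusted p under 0.05 (limma).

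For RNA polymerase I, 3 of 13 other subunits and factors were called higher and 0 lower (limma; 7 and 0 at an unadjusted p under 0.05). TCOF1, treacle, which supports ribosomal gene transcription, rose by 0.33, from 15.9 ± 0.1 to 20.2 ± 1.2 (SD, n = 3; limma, adjusted p = 0.00598). The initiation factors UBTF and RRN3 were not called, with differences of 0.06 (limma, adjusted p = 0.426) and 0.17 (limma, adjusted p = 0.0508). Of 10 RNA polymerase III subunits, 2 were higher and 0 lower (limma; 3 and 1 at an unadjusted p under 0.05). The shares over all tested genes were 11.5% and 11%. With IL-1β against untreated cells, 0 of the 43 small subunit factors were called by limma, and 4 were higher and 3 lower at an unadjusted p under 0.05. Of all 11924 tested genes, 4987 had such a p in that comparison, in either direction. At the adjusted threshold, 16.2% of all tested genes were called higher and 16% lower. Of the 40 large subunit factors, NIFK was called higher and URB1 lower, the latter by a log2 fold change of -0.47. Single genes were also called lower for RNA polymerase I (POLR1E) and for snoRNPs (TGS1). Of the exosome genes 1 was higher and 2 were lower, and of the RNA polymerase III subunits 3 were higher, POLR3D and POLR3A among them.

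**Figure D5:**
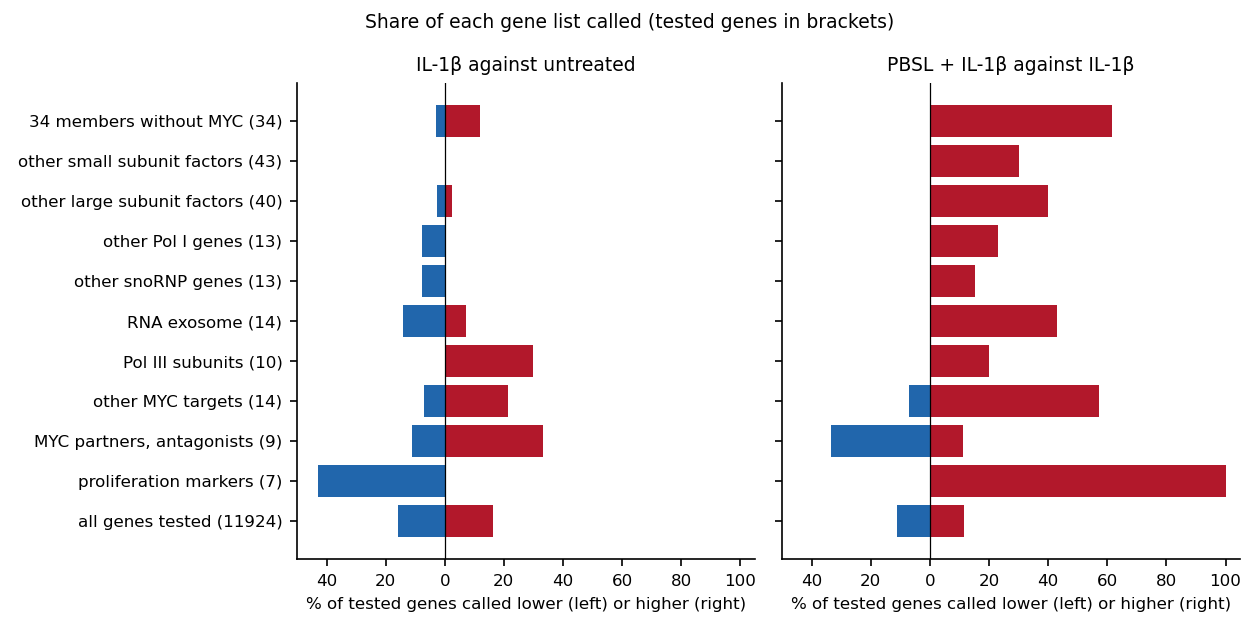
Percentage of each gene list called higher (red, to the right) or lower (blue, to the left) with IL-1β against untreated and with PBSL + IL-1β against IL-1β; the number tested is in brackets and the lowest bars are all tested genes. In the second panel the ribosome assembly lists have red bars only, and the 7 proliferation markers reach 100%.

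MYC's partners and antagonists moved in both directions. MAX, its dimer partner, was not called with PBSL + IL-1β against IL-1β, at 33.7 ± 2.1 and 30.2 ± 2.3 (SD, n = 3; limma, adjusted p = 0.128), but was higher than in untreated cells, at 26.3 ± 1.3 (SD, n = 3; limma, adjusted p = 0.00185). MNT, which pairs with MAX and represses E-box genes, was at 3.70, 3.74 and 4.15 in untreated cells, at 5.10, 5.83 and 5.38 with IL-1β and at 4.79, 4.14 and 3.97 with PBSL + IL-1β. MNT rose with IL-1β by 0.40 (limma, adjusted p = 0.00223) and was lower with PBSL, where it fell by 0.28 (limma, adjusted p = 0.0278). MXI1, another MAX-binding repressor, rose with IL-1β by 0.56 and with PBSL fell by 0.38 (limma, adjusted p = 0.000494 and 0.0136). MXD4, of the same family, fell in both steps, by 0.33 and then by 0.38 (limma, adjusted p = 0.0197 and 0.0159), while MXD3 rose by 0.45 with PBSL (limma, adjusted p = 0.0135). In all, of 9 such genes tested, 3 were higher and 1 lower with IL-1β, and 1 higher and 3 lower with PBSL + IL-1β against IL-1β. The shares of all tested genes were 16.2% and 16% in the first comparison, and 11.5% and 11% in the second. Both comparisons share the IL-1β libraries, so a rise with IL-1β and a fall with PBSL are not independent.

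Of 14 other known MYC targets tested, 8 were called higher and 1 lower with PBSL + IL-1β against IL-1β, with a median of 0.24. The matching shares of all tested genes were 11.5% and 11%. HSPE1, a mitochondrial chaperone, was at 222, 211 and 226 and then at 286, 353 and 352. It had fallen with IL-1β by 0.27 and rose with PBSL by 0.58 (limma, adjusted p = 0.0140 and 0.00261). HSPD1, its partner, rose by 0.47 (limma, adjusted p = 0.00396). The gene called lower was CCND2, a cyclin with means of 1.34 ± 0.04 and 0.965 ± 0.047 (SD, n = 3), which fell by 0.25 (limma, adjusted p = 0.0336).

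Markers of dividing cells moved with the ribosome assembly genes. Of 7 tested, 7 were called higher with PBSL + IL-1β against IL-1β (limma), with a median of 0.57, and their summed value was 509 to 521 with IL-1β and 660 to 810 with PBSL + IL-1β. In untreated cells it was 490 to 584. PCNA, the replication clamp, was at 118, 110 and 98.8 in untreated cells, at 84.4, 79.9 and 79.4 with IL-1β and at 108, 145 and 138 with PBSL + IL-1β. It fell with IL-1β by 0.42 and rose with PBSL by 0.66 (limma, adjusted p = 0.00690 and 0.00312). With IL-1β 3 of the 7 were lower, whereas 1 of the 35 genes was. The part of the proliferation markers in the result for the ribosome assembly genes was not tested, and in pooled RNA a larger share of dividing cells and more RNA per cell cannot be told apart.

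The 11 genes with the E-box and the 17 with a window but no E-box had medians close to each other. With PBSL + IL-1β against IL-1β, 6 of the 11 and 11 of the 17 were called higher, with medians of 0.22 and 0.23 on the log2 scale. With IL-1β against untreated cells, 2 of the 11 and 1 of the 17 were called higher. With PBSL + IL-1β against untreated cells, 9 of the 11 and 10 of the 17 were, with medians of 0.23 and 0.20. MRTO4 and FBL, which had the largest changes with PBSL + IL-1β against IL-1β, hold the E-box, but so do UTP20 and GAR1, which were not called.

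Of the 35 genes, 9 hold snoRNA genes within their bounds (25.7%), against 1.85% of the 11898 tested genes with a gene model in GENCODE 29. GNL3 holds 6, NOP56 5, NOP58 4, and NCL and WDR43 3 each. These small RNAs are cut from introns, so the genes supply both proteins and guide RNAs of the pathway. Exons of 14 of the 35 genes overlap a gene on the other strand. The library kit keeps strand, but whether strand was used in counting is not given in the sources used here, so reads of such pairs may not be told apart.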

How the data were processed

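The authors deposited 1 table of signal values, normalized for length and depth; FPKM or TPM is not stated. Trim Galore, STAR, HTSeq and hg38 are named in the submitters' processing notes, without versions. The smallest positive value of a gene fell with its exon length (r = -0.690 on log scales, across 3183 genes). If that smallest value stands for 1 read, the value of 1 read differed between libraries by at most a factor of 1.060. Only values close to the smallest were used for this, so a large difference in depth could not show. The values are not counts, so no count test was run.

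Rows reaching 1 in 3 or more libraries were tested (11924). A pseudocount of 1 was added before log2. limma 3.58.1 (R 4.3.3) with a mean-variance trend was fitted to the 9 libraries in 1 model, with 6 residual degrees of freedom, for 3 comparisons, 2-sided. The threshold for a call was 0.05 for the p adjusted by Benjamini and Hochberg's method over all tested rows. Fold changes are on the log2(value + 1) scale and understate changes of low genes. The IL-1β libraries enter both the comparison with untreated cells and that with PBSL + IL-1β. Opposite changes of any gene in these comparisons are therefore not independent. With 3 libraries against 3, the smallest exact permutation p is 0.1. The fit was tested on simulated data.

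The 35 genes and the 14 other lists (200 genes, of which MKI67 and POLR3GL were not analysed here) were chosen with earlier results of these data known. Named beside the 35 were, per list, comparison and direction, up to 2 called genes with the smallest p, and UBTF, RRN3, MAX and MNT. Alternatives were another pseudocount, no filter, a filter at 5, median-ratio rescaling, array weights, fits of the compared groups only, a replicate block and 9 fits without a library. Removal of a length and GC trend was added after seeing the data. Tables were made with Python 3.11.15, pandas 2.3.3 and numpy 2.4.6.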

Additional observations from a re-analysis of the deposited data

How the results depend on the processing

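Over the 9 fits without a library, the count ran from 1 to 6 for IL-1β against untreated, from 3 to 24 for PBSL + IL-1β against IL-1β and from 12 to 24 for PBSL + IL-1β against untreated. The count over all genes ran from 1314 to 3904 for PBSL + IL-1β against IL-1β. It ran from 2935 to 4273 for IL-1β against untreated and from 3912 to 5413 for PBSL + IL-1β against untreated. With array weights, 9 genes of the 35 were called for IL-1β against untreated in place of 5, and the cause was not tested. Over all tested genes, 5143 were then called in place of 3831. With no filter, 10 of the 35 were called for PBSL + IL-1β against IL-1β in place of 21, where 17613 rows were tested and 2027 called. With the length and GC trend removed, 27 were called there. Fits of the compared groups only, which take the spread from those groups alone, called 14 higher in that comparison, beside 8.99% of all tested genes. For PBSL + IL-1β against untreated they called 15 higher in place of 22, beside 17.8%. For IL-1β against untreated they called 4 higher and 3 lower, beside 20.2% called higher over all tested genes.

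Replicate numbers did not pair the libraries: deviations of same-numbered libraries correlated between -0.225 and 0.0681. With the replicate number as a block, 4, 14 and 18 of the 35 genes were called in the 3 comparisons, in place of 5, 21 and 22. Over all tested genes, 3479, 2131 and 4535 were then called, in place of 3831, 2684 and 4965.

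Sign changes under an alternative occurred only for values that were not called. With the length and GC trend removed, the log2 fold change with IL-1β was -0.0102 for MYC, -0.0582 for NOP58 and -0.0247 for RRP1, that of GAR1 for PBSL + IL-1β against untreated was -0.0478, and that of GNL3 for PBSL + IL-1β against IL-1β was -0.0227. With array weights NOP58 was at -0.0204 with IL-1β, and with median-ratio rescaling GAR1 was at 0.00276 and RRP9 at 0.00506. Without a library, the ranges with IL-1β were -0.00487 to 0.101 for MYC, -0.0363 to 0.0119 for POLR1B, -0.0827 to 0.0901 for NOP58, -0.0414 to 0.0313 for GAR1, -0.0747 to 0.0118 for NHP2, -0.0534 to 0.0485 for NOLC1, -0.0656 to 0.0205 for NOP14, -0.0409 to 0.0205 for RRP9, -0.0327 to 0.0389 for RRP1 and -0.0241 to 0.0208 for MRTO4. For PBSL + IL-1β against IL-1β they were -0.0122 to 0.0820 for NOB1 and -0.0571 to 0.0704 for PPAN. For PBSL + IL-1β against untreated they were -0.0793 to 0.00933 for MYC, -0.0168 to 0.143 for UTP20, -0.0817 to 0.0125 for NOB1, -0.0509 to 0.0927 for BOP1 and -0.0520 to 0.0479 for RRP1B. The depth behind a value is unknown, so counting error could not be given.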
